A study of Rattus norvegicus with 6 samples.

Results

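miR-146a, miR-146b and miR-155 are microRNAs (miRNAs) whose genes respond to NF-kB, the transcription factor that carries inflammatory signals into the nucleus. The members were chosen by name: each row of the mature miRNA table whose name, without the -5p or -3p ending, was rno-miR-146a, rno-miR-146b or rno-miR-155. This gave 6 rows, both arms of the 3 hairpins, among 734 mature miRNAs. All 6 passed the filter on low counts, as did 549 of the 734.

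A miRNA is cut from a hairpin transcript, and either the 5′ arm (5p) or the 3′ arm (3p) is loaded into Argonaute, where bases 2 to 8, the seed, select the mRNAs to be repressed. miR-146 is known as a brake on inflammatory signaling, because it represses the adaptor TRAF6 and the kinase IRAK1 upstream of NF-kB. miR-155 is known mainly from activated immune cells, where it represses inhibitors of signaling such as SOCS1. In the testis, inflammatory cues act on sertoli cells, the somatic cells that nourish the germ cells and form the blood-testis barrier.

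The libraries came from primary sertoli cells of Sprague-Dawley rats aged 5 to 10 days, with 3 control samples and 3 samples exposed to 0.5 mM 4-nonylphenol (4-NP), an alkylphenol with estrogen-like action, each at 24 h. The cells were enriched by enzyme digestion and culture in serum, without a sort, so cells of other types could remain, and the labels do not say whether the samples came from separate animals or cultures. The p-values therefore measure the spread between these samples, which may be technical. Mature miRNAs had 20023200 to 23426742 reads per library, of which miR-21-5p took 62.0 to 63.9%, and levels below are counts per 1000000 of these reads (CPM). A count of 0 allows up to 3 reads, or 0.128 to 0.150 CPM, which covers counting error only. The miRNA markers were a partial match to the label: miR-202-5p, a miRNA of gonadal somatic cells, averaged 1026 ± 200.3 CPM without and 746 ± 46.7 CPM with 4-NP (SD, n = 3 each), while miR-143-3p of myoid and smooth muscle cells was more abundant in both groups, at 123969 ± 8633 and 89443 ± 4588 CPM (SD, n = 3 each).

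The mature sequences show which members can act on the same mRNAs and which could be confused in counting. They are given 5′ to 3′ from RefSeq (GRCr8 build), with the seed in capitals. Mir146b and Mir155 are encoded on the plus strand and Mir146a on the minus strand.
miR-146a-5p: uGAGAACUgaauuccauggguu
miR-146b-5p: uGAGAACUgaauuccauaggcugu
miR-146a-3p: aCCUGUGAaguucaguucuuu
miR-146b-3p: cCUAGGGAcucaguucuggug
miR-155-5p: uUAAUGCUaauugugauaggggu
miR-155-3p: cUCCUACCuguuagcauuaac

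The 5p arms of miR-146a and miR-146b share their seed and are identical at 20 of the 22 positions of miR-146a-5p. Counted from the 5′ end, with the base of miR-146a-5p first, they differ as G18A and U21C, and miR-146b-5p is 2 bases longer. Their 3p arms have different seeds, with 4 of the 7 seed positions identical. No other counted miRNA with a RefSeq sequence shared a seed with any of the 6 arms, where 606 of the 673 known mature miRNAs were matched to a sequence. In the GRCr8 gene table, Mir155 lies within its host gene Mir155hg, Mir146a within LOC134480673 and Mir146b within C1h10orf95. The build behind the counts is not given in the sources used here, so no coordinates are printed.

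Exposure to 4-NP went with a higher level of miR-146a, in both of its arms, while miR-146b showed no detectable change. miR-155-5p had almost no reads in 2 of the 6 libraries. miR-146a-5p, the main arm, stood at 34.1, 28.6 and 42.3 CPM in control samples 1, 2 and 3 and at 80.6, 95.0 and 71.5 CPM in 4-NP samples 1, 2 and 3. Every 4-NP sample was above every control. The means were 35.0 ± 6.87 and 82.4 ± 11.8 CPM (SD, n = 3 each), and miR-146a-5p rose 2.29-fold (log2 ratio of 4-NP to control, log2FC, 1.20, SE 0.22, 95% interval 0.67 to 1.73). Its adjusted p was 0.0104 by the quasi-likelihood test of edgeR over 549 miRNAs. It ranked between 138 and 223 by read count among the mature miRNAs, depending on the library.

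The passenger arm miR-146a-3p moved the same way at a far lower level, with 11, 18 and 17 control reads and 38, 58 and 29 reads in treated cells. The groups again did not overlap, at 0.670 ± 0.174 and 1.98 ± 0.818 CPM (SD, n = 3 each). Its log2FC was 1.53 (SE 0.37, edgeR adjusted p = 0.0296). This call rests on few reads: leaving out any single sample other than 4-NP replicate 3 ended it, with adjusted p of 0.0318 to 0.0957 over the 6 such edgeR fits.

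miR-146b-5p, which carries the same seed, was nearly flat. Control samples stood at 103, 114 and 112 CPM and 4-NP samples at 119, 120 and 112 CPM, so the groups overlapped. The means were 110 ± 6.23 and 117 ± 4.18 CPM (SD, n = 3 each), for a log2FC of 0.07 (SE 0.12, edgeR adjusted p = 0.728). The 95% interval ran from 0.861-fold to 1.28-fold and so did not reach the rise of miR-146a-5p. The passenger arm miR-146b-3p had 20, 25 and 15 control reads and 23, 16 and 26 reads in treated cells, for a log2FC of 0.21 (SE 0.30, edgeR adjusted p = 0.673). At this depth its interval, 0.705-fold to 1.89-fold, leaves room for a change of either sign.

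**Figure D1:**
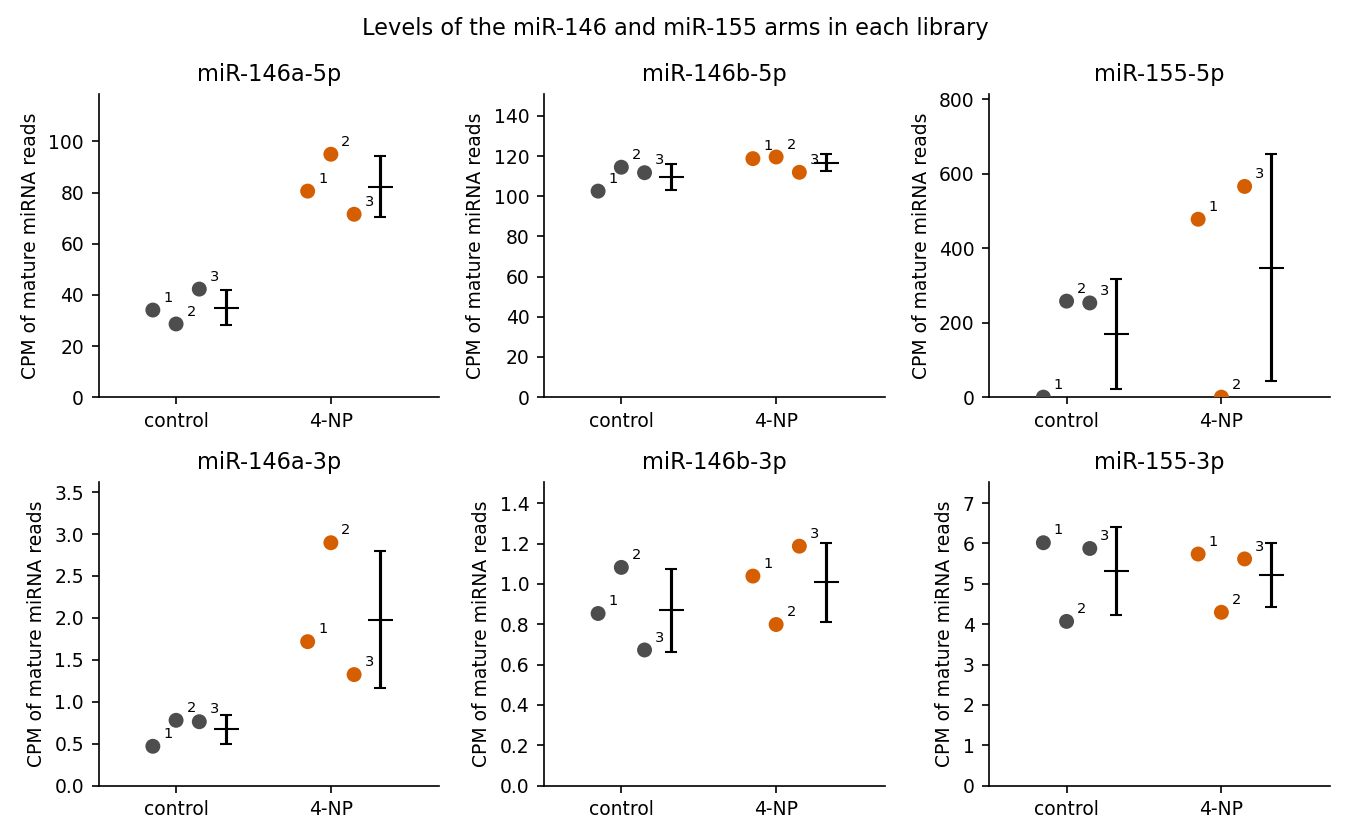
Levels of the 6 arms in CPM of mature miRNA reads (y axis, linear from 0, with a scale of its own in each panel) in the control (grey) and 4-NP (orange) libraries, numbered by replicate, with the mean and SD as a bar beside the points. Both arms of miR-146a lie higher in every 4-NP library, miR-146b-5p stays between 103 and 120 CPM, and miR-155-5p is near 0 in control 1 and 4-NP 2.

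Of the 6 arms, 2 were higher with 4-NP and 0 lower at an edgeR adjusted p under 0.05, where 7.47% of all tested miRNAs were higher and 12.8% lower. The same 2 passed the study's thresholds (fold change over 2, unadjusted p under 0.05), which 5.83% of the tested miRNAs passed upward and 9.84% downward. At an unadjusted p under 0.05, 2 of the 6 arms passed as well, where 35.7% of the tested miRNAs did. The 4-NP samples lay entirely above the controls for 2 of the 6 arms and for 19.9% of the tested miRNAs, and entirely below them for 0 of the 6 and for 22.6% of the tested miRNAs. The median log2FC was 0.63 over the 6 arms and -0.02 over all tested miRNAs.

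**Figure D2:**
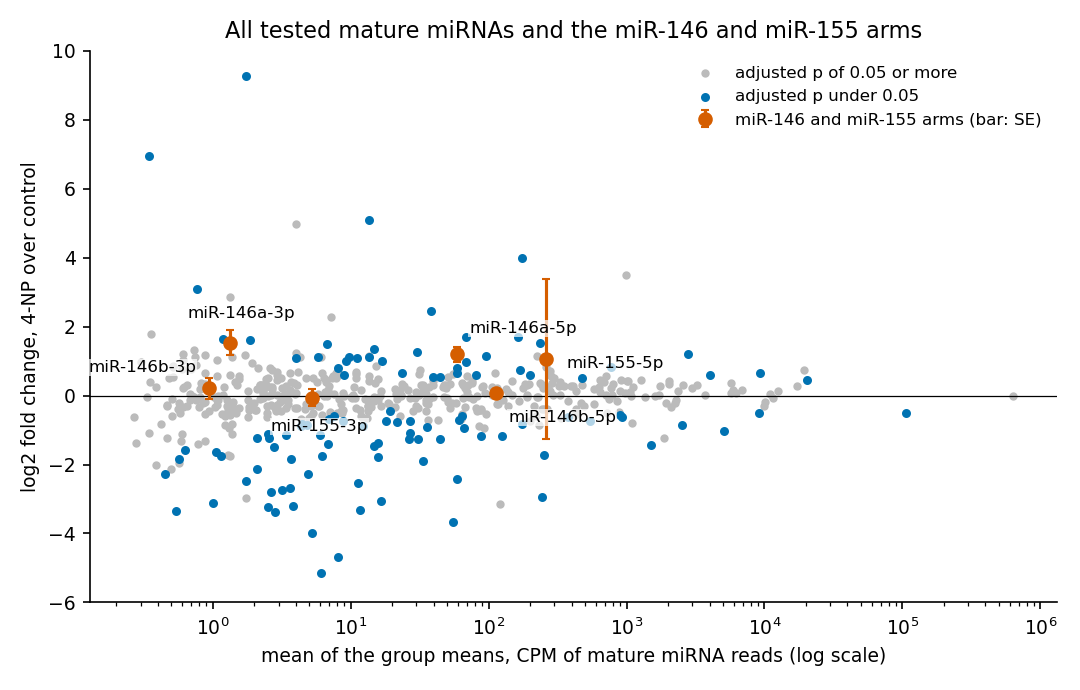
Log2 fold change after 4-NP (y axis) against the mean level in CPM (x axis, log scale) for the 549 tested mature miRNAs, coloured by adjusted p from edgeR, with the 6 miR-146 and miR-155 arms in orange and their standard errors (SE) as bars. The arms of miR-146a lie at 1.20 and 1.53, those of miR-146b near 0, and miR-155-5p has a standard error of 2.33.

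The different behavior of the pair was tested within each library, since a ratio of 2 counts from the same library does not depend on scaling. Reads of miR-146b-5p outnumbered those of miR-146a-5p by 3.01, 4.00 and 2.64 to 1 in the controls and by 1.47, 1.26 and 1.57 to 1 after 4-NP. The groups did not overlap. The log2 ratio fell by 1.15 (SE 0.20, n = 3 each), and the exact two-sided permutation test gave p = 0.1, the smallest that 3 samples against 3 allow, or 0.3 after Benjamini-Hochberg adjustment over the 3 ratios tested. It was lower in 3 of 3 treated samples.

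Put as a share, miR-146a-5p made up 24.9, 20.0 and 27.4% of the reads of the pair in the controls and 40.4, 44.3 and 39.0% after 4-NP, on average 24.1 ± 3.78% and 41.2 ± 2.74% (SD, n = 3 each). The nearest samples of the 2 groups were control 3, with a Wilson 95% interval of 26.0 to 29.0%, and 4-NP 3, with one of 37.5 to 40.5%. These intervals cover the counting error of reads only. As the reads were not collapsed to molecules, the intervals may be too narrow for molecules. The rule by which reads common to both sequences were assigned is not given in the sources used here. A read that ends before position 18 would fit either exactly, and a longer one could if mismatches were allowed. The division of reads between the 2 sequences was not tested.

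Together the pair, which offers a single seed to its targets, had 137, 143 and 154 CPM in the controls and 199, 215 and 183 CPM after 4-NP. Every 4-NP sample was above every control. The means were 145 ± 8.78 and 199 ± 15.5 CPM (SD, n = 3 each), and the log2FC of 0.44 (SE 0.13) did not pass adjustment (edgeR adjusted p = 0.0658).

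**Figure D3:**
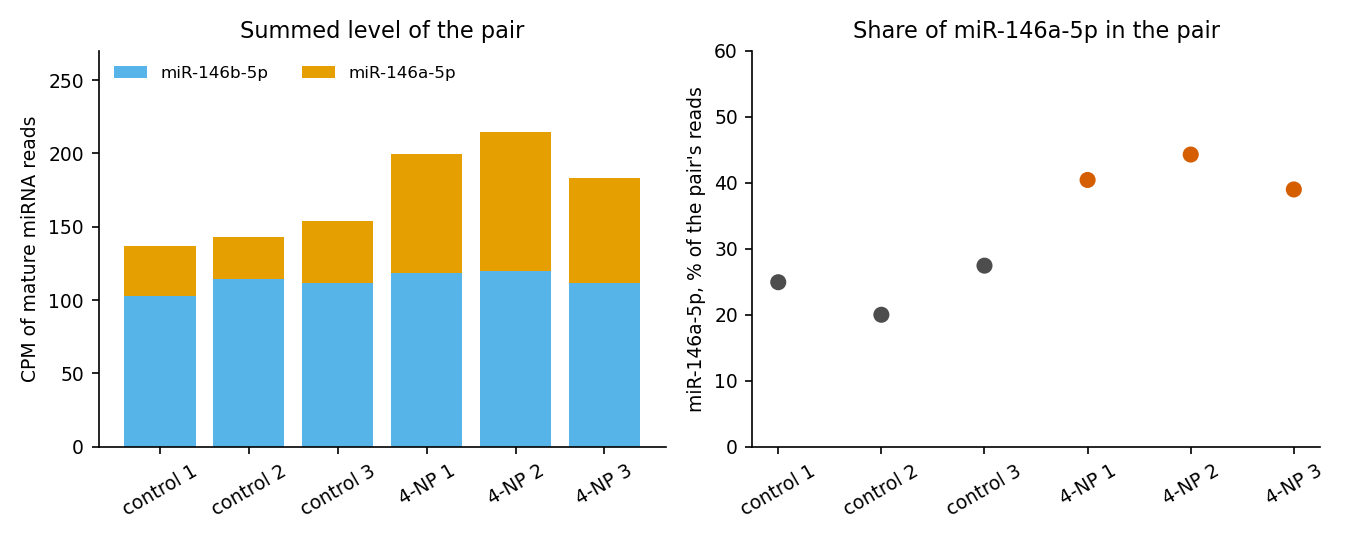
Left, the level of miR-146b-5p (blue) and miR-146a-5p (orange) stacked in each library (CPM of mature miRNA reads). Right, the share of miR-146a-5p in the reads of the pair (% of reads), which is 20.0 to 27.4% in the controls (grey) and 39.0 to 44.3% after 4-NP (orange).

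The preference between arms of a hairpin was also compared. The 5p arm of miR-146a had 72.5, 36.7 and 55.4 times the reads of its 3p arm in the controls and 46.9, 32.8 and 54.0 times after 4-NP. These ranges overlapped, and the log2 ratio differed by -0.28 (SE 0.36, exact permutation p = 0.4, adjusted p = 0.6). For miR-146b the 5p arm had 106 to 166 times the reads of the 3p arm in the controls and 94.3 to 150 times after 4-NP, a log2 difference of -0.13 (SE 0.27, exact permutation p = 0.6, adjusted p = 0.6).

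miR-155-5p was the most abundant of the 6 arms in 4 libraries and almost absent from the other 2. Its reads numbered 2, 5954 and 5638 in control samples 1, 2 and 3 and 10569, 1 and 12385 in 4-NP samples 1, 2 and 3. Control 1 and 4-NP 2 were thus at or under the limit of 3 reads, and in the other libraries its level was 258 and 253 CPM in the controls and 478 and 566 CPM after 4-NP. In the fit of all 6 samples its log2FC was 1.06 with an SE of 2.33 (edgeR adjusted p = 0.782), and its 95% interval ran from -4.53 to 6.64, so no statement on a change can be drawn from it.

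Other reads of the same hairpin were not missing from these 2 libraries. miR-155-3p had 141, 94 and 131 control reads and 127, 86 and 123 reads in treated cells, so that control 1 was the highest of the 6. The count table also has a row for the mir-155 precursor family, with 913, 950 and 945 control reads and 1465, 1085 and 1503 reads in treated cells. The 5p arm had 43.0 to 101 times the reads of the 3p arm in the other 4 libraries, and 0.0142 and 0.0116 times in control 1 and 4-NP 2.

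**Figure D4:**
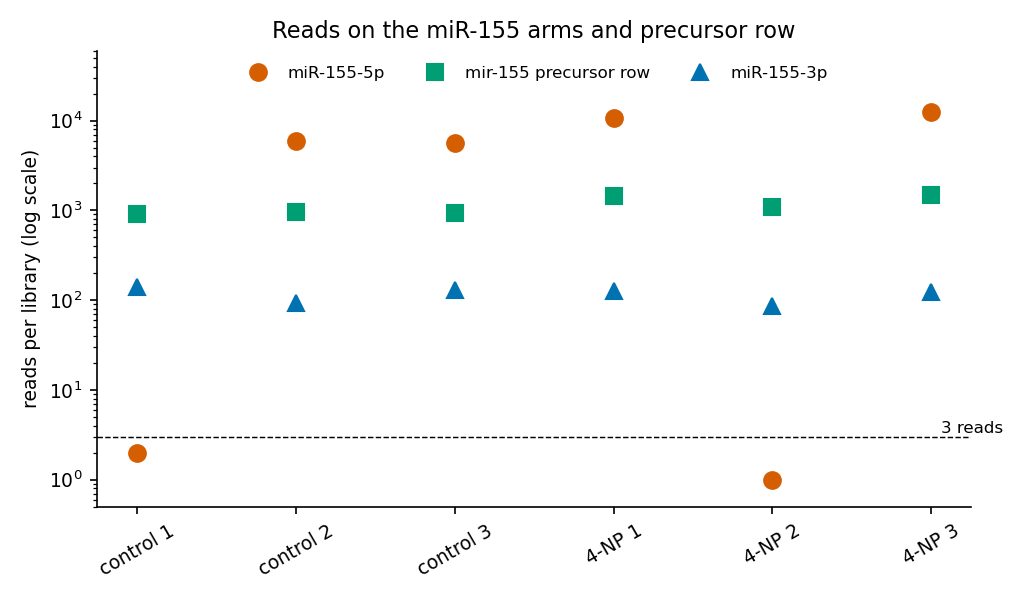
Reads per library (y axis, log scale) on miR-155-5p (circles), the mir-155 precursor row (squares) and miR-155-3p (triangles), with a dashed line at 3 reads. miR-155-5p has 2 reads in control 1 and 1 in 4-NP 2, whereas miR-155-3p and the precursor row keep 86 to 141 and 913 to 1503 reads in all 6 libraries.

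Such a gap was rare. Of the 253 mature miRNAs with at least 500 reads in some library, 4 had at most 3 reads in another, and miR-155-5p was the only one of these 4 with so few in control 1 or in 4-NP 2, and the only one low in 2 libraries. Of the 2359 rows searched, which leave out the 4 genome totals, none with at least 50 reads in some library was over 2 times higher in both of these libraries than in each of the other 4. In 2 rows, miR-199a-3p and miR-3578, both libraries exceeded all others by at least the lowest level of miR-155-5p in those others, 253 CPM. Once miR-155-5p itself was set aside, the deviations of control 1 and 4-NP 2 from their group means correlated at -0.0652 across the tested miRNAs, against 0.302 with it. Each is a correlation across genes, and genes are no replicates. The cause of the low counts of miR-155-5p was not tested.

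Without these 2 libraries, a choice made after their counts were seen, miR-155-5p averaged 255 ± 3.44 CPM without and 522 ± 62.3 CPM with 4-NP (SD, n = 2 each). Both 4-NP samples were above both controls. Its log2FC was 1.06 (SE 0.21, 95% interval 0.51 to 1.60), with an edgeR adjusted p of 0.0569, just above the threshold, where 2.33% of the 557 miRNAs tested in this fit were higher. In the same fit of 2 against 2 samples miR-146a-5p had a log2FC of 1.10 (SE 0.30, edgeR adjusted p = 0.102) and miR-146a-3p one of 0.99 (SE 0.34, edgeR adjusted p = 0.157), so both calls were lost. That of miR-146b-5p was 0.05 (SE 0.18, edgeR adjusted p = 0.886).

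miR-155-3p, the passenger arm, averaged 5.32 ± 1.09 CPM without and 5.22 ± 0.801 CPM with 4-NP (SD, n = 3 each), and the groups overlapped. The log2FC was -0.06 (SE 0.25, 95% interval -0.67 to 0.54, edgeR adjusted p = 0.882). In the 4 libraries where miR-155-5p was abundant the log2FC of miR-155-3p was 0.19 (95% interval -0.59 to 0.98, edgeR adjusted p = 0.714). This interval overlaps that of the 5p arm, and the difference between the arms was not tested.

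In the controls the 6 arms thus fell into an order, with miR-155-5p at about 255 CPM where it was abundant (controls 2 and 3), miR-146b-5p at 110 CPM, miR-146a-5p at 35.0 CPM, miR-155-3p at 5.32 CPM and both passenger arms of miR-146 under 1.1 CPM. The latter 2 overlapped in the controls, at 0.673 to 1.08 CPM for miR-146b-3p and 0.470 to 0.779 CPM for miR-146a-3p. After 4-NP miR-146a-3p stood at 1.32 to 2.90 CPM and miR-146b-3p at 0.799 to 1.19 CPM. The nearest of these values, both from 4-NP 3, rest on 29 and 26 reads, a gap within counting error, and a change of order was not tested. Each read stands for a whole mature miRNA, so no length correction applies, but adapters join some miRNAs more readily than others, and levels of different miRNAs compare only roughly.

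Other miRNAs tied to inflammation were taken from 2 lists. The first held miRNAs that inflammatory or stress signals are known to induce (miR-9a, miR-21, miR-132, miR-212, miR-147, miR-187, miR-221, miR-222 and miR-301a), with 16 arms, of which 15 were tested. None was called in either direction at an adjusted p under 0.05 by edgeR, DESeq2 or limma. In edgeR, 7.47% of all tested miRNAs were called higher and 12.8% lower. At an unadjusted p under 0.05 in edgeR, 2 of the 15 passed, against 35.7% of all tested miRNAs. The median log2FC of the list was -0.0013, with a range of -0.43 to 0.57. Its most abundant arm, miR-21-5p, averaged 626227 ± 8275 CPM without and 635366 ± 3837 CPM with 4-NP (SD, n = 3 each, log2FC -0.0013, edgeR adjusted p = 0.991).

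The second list held miRNAs known to restrain NF-kB or inflammation of endothelial and myeloid cells (miR-10a, miR-31a, miR-125a, miR-125b, miR-126a, miR-181b, miR-199a and miR-223), with 14 arms, of which 13 were tested. Here 4 fell and 0 rose, against 12.8% of all tested miRNAs that fell and 7.47% that rose, and the median log2FC was -0.08. miR-126a-3p, which supports endothelial integrity, fell from 6747 ± 671 to 3367 ± 312 CPM (SD, n = 3 each, log2FC -1.02, SE 0.15, edgeR adjusted p = 0.00419), and its other arm miR-126a-5p fell by 1.16 on the log2 scale. miR-199a-5p, known to target the kinase IKK-beta, had a log2FC of -0.86 (SE 0.10, edgeR adjusted p = 0.00154), while the most abundant arm of the list, miR-199a-3p, had one of -0.08 (edgeR adjusted p = 0.635). miR-125a-3p fell by 0.84 (SE 0.23, edgeR adjusted p = 0.0473), a call that was lost in 8 of 17 alternatives (adjusted p of 0.0247 to 0.225 in all). In the second list, 1 arm, miR-31a-5p, was close to the threshold upward, with a log2FC of 0.41 (SE 0.12, edgeR adjusted p = 0.0547), and passed it in 8 of 17 alternatives.

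Because miR-146a and miR-155 are abundant in immune cells, the markers of leukocytes and blood cells were read beside them. Of the 10 arms of miR-142, miR-144, miR-150, miR-223, miR-451 and miR-486, 6 were tested, 1 rose and 0 fell. Over all tested miRNAs, 7.47% rose and 12.8% fell at the same threshold, so such counts in a short list say little. None of the 10 was at 0 in all libraries. Their summed level was 29.6 to 63.1 CPM in the controls and 76.6 to 668 CPM after 4-NP. The arm that rose was the red cell miRNA miR-451-5p, at 10.8, 10.7 and 40.1 CPM in the controls and 58.7, 305 and 628 CPM after 4-NP (log2FC 3.99, edgeR adjusted p = 0.0363). That call was lost without control 1, control 2, 4-NP 2 or 4-NP 3 (edgeR adjusted p of 0.123, 0.114, 0.0689 and 0.0874). miR-142-3p, found in nearly all leukocytes, averaged 5.31 ± 0.931 CPM without and 3.42 ± 1.06 CPM with 4-NP (SD, n = 3 each, log2FC -0.67, edgeR adjusted p = 0.15). miR-223-3p of myeloid cells had 2.65, 1.99 and 3.32 CPM in control samples and 1.90, 10.9 and 4.93 CPM in treated ones (log2FC 1.12, edgeR adjusted p = 0.237). Its highest sample, 4-NP 2, was also the highest for miR-146a-5p and miR-486, whereas both arms of miR-142 were lowest there. miR-451-5p and miR-150-5p were highest in 4-NP 3, the lowest treated sample for miR-146a-5p. miR-150-5p of lymphocytes had 10.7, 10.0 and 11.7 CPM in the controls and 8.90, 22.8 and 27.2 CPM after 4-NP (log2FC 0.85, edgeR adjusted p = 0.198). miR-223-3p and miR-150-5p were thus below every control in 4-NP 1 and above every control in 4-NP 2 and 3. miR-486, another red cell miRNA, had 1 to 11 control reads and 5, 89 and 52 reads in treated cells (log2FC 2.85, edgeR adjusted p = 0.113), and miR-142-5p had a log2FC of -0.37. In such bulk samples, a change in the number of cells of a type and in the RNA per cell cannot be told apart.

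The arms of other cell types moved as well. Their counts stand beside the 7.47% of all tested miRNAs that rose and the 12.8% that fell. Of the 6 tested myoid and smooth muscle arms 2 fell and 0 rose, namely miR-143-3p (log2FC -0.50) and miR-145-3p (-1.88), while miR-133a-3p, miR-143-5p, miR-145-5p and miR-1-3p had values of -0.29, -0.66, -0.33 and 0.30 that did not pass. Both endothelial arms fell (miR-126a, above). Of the 7 tested germ cell arms 4 fell, those of miR-871 (-4.68 for 3p, -3.66 for 5p), miR-880-3p (-5.16) and miR-883-5p (-3.99), and 2 rose, those of miR-34c (1.36 for 3p, 1.11 for 5p), with miR-449a-5p at -0.25. The part of these markers, and of those of blood cells, in the rise of miR-146a was not tested. miR-202-5p of gonadal somatic cells had a log2FC of -0.48 (SE 0.16, edgeR adjusted p = 0.0858), and its other arm miR-202-3p, with 0 to 123 reads per library, had one of 0.75 (SE 1.24, edgeR adjusted p = 0.725).

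Finally, the tested miRNAs whose log2(CPM + 1) followed each arm most closely over the 6 samples were listed, as a description. For miR-146a-5p these were miR-466c-5p (Pearson r = 0.984), the predicted novel_mir3 (0.98) and novel_mir1 (0.976). Of these, miR-466c-5p rose by 0.60 on the log2 scale (SE 0.14, edgeR adjusted p = 0.0286), from 156 to 242 CPM. For miR-146a-3p they were miR-342-3p (0.978), miR-23a-3p (0.954) and miR-466b-3p (0.948), and the arms of miR-146a correlated with each other at 0.906. For miR-146b-5p they were miR-181a-5p (0.985), novel_mir5 (0.969) and miR-423-3p (0.934), and for miR-146b-3p miR-29a-5p (0.942), miR-151-3p (0.896) and let-7d-3p (0.868). For miR-155-3p they were miR-201-5p (0.907), miR-3574 (0.896) and miR-147 (0.82). For miR-155-5p they were novel_mir26 (0.933), miR-409a-5p (0.921) and miR-380-5p (0.891), where the order of samples was set by the 2 libraries with almost no reads. All of these values come from the same 6 libraries, which share a difference between the groups.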

How the data were processed

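Libraries were made from gel-cut RNA of 18 to 30 nt, with molecular identifiers in the adapters. What the authors deposited is 1 table of read counts per small RNA, without normalization, with 2363 rows. Beside each count column the deposited table has a column named for the identifiers, a score that was 1 for every known mature miRNA with reads and entered no test. FastQC is named in the study's methods, and HISAT2 and DESeq2 in the submitters' processing notes, with no role. The miRNA database and genome build are not given in the sources used here.

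Counts of the 734 mature miRNAs (673 known, 61 predicted) were tested in R 4.3.3 with edgeR 4.0.16 (filterByExpr, TMM factors, quasi-likelihood F test, Benjamini-Hochberg adjustment over 549 miRNAs), as the study's methods name edgeR. Library size was the sum of mature counts, which made up 81.9 to 85.2% of counted reads. Printed levels carry no TMM factor, and these factors ran from 0.947 to 1.09. Standard errors (SE) are the absolute log2 fold change over the square root of F. Replicates of a group differed by more than counting noise (chi-square of 132 to 806 per degree of freedom). The 4 genome totals were left out. Precursor rows were fitted with the other small RNAs on the effective library sizes of the miRNAs.

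Named were all arms of the members, the called and most abundant arms of 2 lists of inflammation miRNAs (the 4 with the smallest p where more were called), miRNAs sharing a seed, the 3 miRNAs most correlated with each arm, markers of other cell types, precursor rows and the most abundant miRNA. miR-1-3p, miR-31a-5p, miR-125b-1-3p, miR-125b-2-3p, both arms of miR-142, miR-202-3p, miR-223-3p, miR-486 and miR-3578 were named after their values were seen. The members and lists were chosen with earlier results of these data known. Alternatives were DESeq2 1.42.0, limma 3.58.1 on log2(CPM + 1), RLE factors, total-count scaling, a library size without miR-21-5p, no filter, at least 10 counts in every sample, the classic exact test, known miRNAs only, a replicate block and the omission of each sample. The omission of control 1 together with 4-NP 2, and TMM factors from the other small RNAs, were added after the data were seen. The procedure was tested on simulated data with less spread between samples than these data, whose common dispersion was 0.118. That run therefore gives no error rate for these data.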

Additional observations from a re-analysis of the deposited data

Results flagged for a closer look

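The table has rows for precursor families, which enter no comparison of mature miRNAs, and the rows of both hairpin families were above every control in all 3 treated samples. How many of the other small RNAs were so placed was not counted, so this placing is no result about these families. The microRNA mir-146 precursor row, which does not separate miR-146a from miR-146b, averaged 15.3 ± 1.51 CPM without and 19.0 ± 1.08 CPM with 4-NP (SD, n = 3 each, log2FC 0.30, SE 0.17, edgeR adjusted p = 0.237 over 738 other small RNAs). The microRNA mir-155 precursor row had 40.8 ± 1.73 and 63.0 ± 7.74 CPM (SD, n = 3 each), for a log2FC of 0.61 (SE 0.19, edgeR adjusted p = 0.0676). The median log2FC of the 738 was itself 0.46 on the scaling of the miRNAs, above the value of the mir-146 row, and 14.9% were called higher. Neither row passed the threshold, and with TMM factors taken from these other small RNAs the values were -0.089 and 0.21.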

How the results depend on the processing

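The rise of miR-146a-5p held under 16 of 17 alternatives (log2 fold change 1.02 to 1.38 over the omissions of 1 sample), and its largest adjusted p there was 0.0498, with a replicate block in edgeR. It was lost in the 1 other, the added fit without control 1 and 4-NP 2 (1.10). miR-146a-3p kept its call under only 10 of 17 alternatives. It had 1.24 to 1.74 over the omissions of 1 sample, and its call was kept in 1 of these 6. The call was also lost under the replicate block (1.50, edgeR adjusted p = 0.0656) and in the added fit (0.99). limma on log2(CPM + 1) gave 0.80 for this low-count arm and kept the call. The pair summed was not called in any of 8 alternatives (0.39 to 0.50, adjusted p of 0.057 to 0.168). miR-155-3p, not called anywhere, changed sign to 0.0059 with a library size without miR-21-5p, ran from -0.27 to 0.15 over the omissions and had 0.19 in the added fit. The 5p to 3p ratio of miR-146b ran from -0.31 to 0.06. The fold change of miR-155-5p ran from 0.45 to 1.71 over the omissions, and its row was not tested under a minimum of 10 counts in every sample. The mir-146 precursor row turned to -0.089 when TMM factors came from non-miRNA rows, and the mir-155 precursor row went from 0.61 to 0.21 (edgeR adjusted p = 0.487). The miRNAs called higher went from 41 to 26 with a replicate block, and from 41 to 13 (70 to 30 lower) without control 1 and 4-NP 2. In that fit miR-126a-3p (edgeR adjusted p = 0.0587), miR-126a-5p (0.0596) and miR-125a-3p (0.225) lost their calls, and miR-199a-5p kept its call (0.0392). The second list had 2 arms lower there, against 4. The arm beside miR-199a-5p was thus not called in the fit of all 6 samples, and it was not identified. In the second list 1 arm was higher, against 0, with DESeq2, RLE factors, total-count scaling, limma, a library size without miR-21-5p, no filter, known miRNAs only and the omission of 4-NP 1 or of 4-NP 2. This arm was miR-31a-5p except with the omission of 4-NP 1. There miR-31a-5p was not called (edgeR adjusted p = 0.0602), and the arm that was higher was not identified. Same-numbered samples did not deviate together (r of -0.301, -0.267 and -0.0209, or -0.172, -0.0857 and -0.135 without miR-155-5p). These are correlations across genes and cannot settle whether samples were paired. The labels name no pairing, so the block rests on a shared number only. Arms under 30 reads per library on average limit what this depth can show.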
